A study of Mus musculus with 6 samples.

Results

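Fibronectin and 9 secreted matricellular proteins were followed in mouse lung fibroblasts: Fn1, Postn, Tgfbi, Tnc, Sparc, Thbs1, Thbs2, Smoc2, Spon1 and Spon2. The genes were chosen by symbol, and all 10 of 10 were found among the 14870 genes of the deposited table and among the 13906 genes tested. Primary lung-resident fibroblasts came from TGFα mice, male and female and 10 to 16 weeks old, in which the club cell promoter CCSP drives rtTA so that doxycycline (Dox) switches on a TGFα transgene in the lung epithelium. The mice had been on Dox for 10 days, the cells were used at passages 1 to 5, and RNA was sequenced 72 h after transfection with Stealth siRNA. The comparison is of 3 libraries of Aurkb siRNA, against the mitotic kinase Aurora kinase B, and 3 libraries of control siRNA, and it asks which transcripts differ once this kinase is depleted. Both groups carried the transgene, received Dox and were transfected, so neither shows the level of untreated cells. Whether the replicates are different animals or repeat dishes of the same cells is not stated, and the tests below therefore weigh differences only against the variation among these 6 libraries, which may be technical.

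Matricellular proteins are secreted into the extracellular matrix, where they bind collagens, growth factors and cell surface receptors and tune adhesion and signalling more than they bear load. Fibronectin is itself a structural glycoprotein, drawn out into fibrils by integrins, and offers a scaffold on which collagen and several matricellular proteins assemble. In the lung these genes are typical products of activated fibroblasts, are raised in wounds and fibrosis, and many respond to TGF-β.

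Of the 10 genes, 4 fell with Aurkb siRNA (Postn, Tgfbi, Smoc2 and Spon1), 1 rose (Spon2) and 5 did not pass both thresholds (Fn1, Tnc, Sparc, Thbs1 and Thbs2). Postn, Tgfbi and Smoc2 fell to 51.0%, 46.7% and 50.4% of their control means, whereas the abundant transcripts Fn1 and Sparc had log2 fold changes of -0.16 and 0.05. A gene was called at an adjusted p of at most 0.05 and a change of at least 1.5-fold, in limma across all genes tested with Benjamini-Hochberg adjustment. By the same rule 7.67% of all genes were called lower and 4.64% higher. By the adjusted p alone, 7 of the 10 genes passed (5 lower and 2 higher), against 40.0% of all genes, and the groups did not overlap for 6 of the 10, against 52.2% of all genes, which is close to the background. The median log2 fold change over the 10 genes was -0.19, beside 0.00 over all genes tested.

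**Figure D1:**
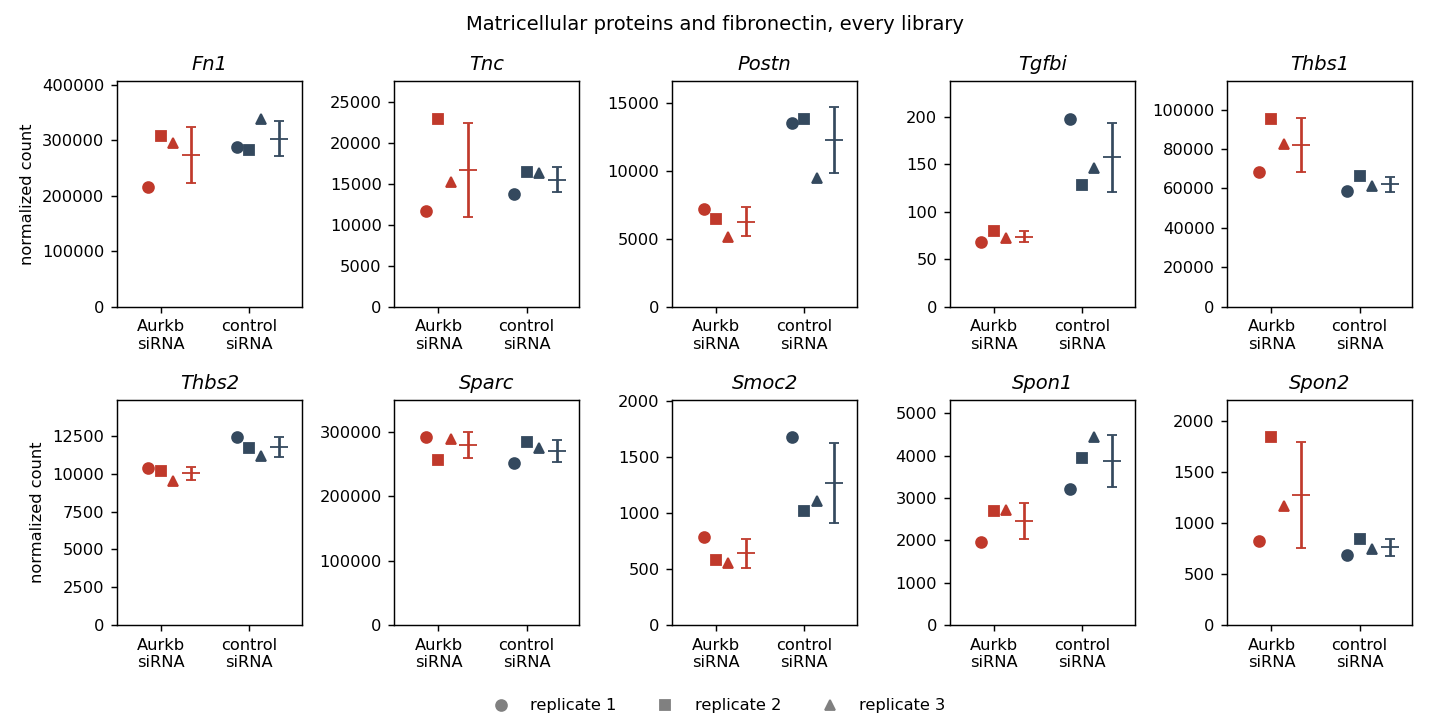
Normalized counts of each gene in every library, Aurkb siRNA on the left of each panel and control siRNA on the right, each vertical axis from 0; symbols give the replicate number, and the bar with whiskers is the mean ± SD (n = 3). Postn, Tgfbi, Thbs2, Smoc2 and Spon1 lie below every control library in all 3 Aurkb siRNA libraries, Thbs1 lies above, and Fn1, Tnc, Sparc and Spon2 overlap.

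The libraries held 20820596 to 27572833 counted reads with Aurkb siRNA and 29350227 to 30441954 with control siRNA. Aurkb had 37.4, 52.8 and 28.9 normalized counts in Aurkb siRNA libraries, against 99.5, 108 and 134 in control siRNA libraries (log2 fold change -1.52, SE 0.23, limma adjusted p = 9.27e-04), which fits the labels. The lung fibroblast markers, summed over 8 genes, reached 964310.0 to 1094765 normalized counts in Aurkb siRNA libraries and 1157592 to 1304225 in control siRNA libraries, and 2 of them, Pdgfra and Dcn, fell. Endothelial markers fell in 10 of 11 cases (Pecam1, Cdh5, Kdr, Tek, Tie1, Emcn, Cldn5, Erg, Egfl7 and Robo4), with sums of 3216 to 3955 in Aurkb siRNA libraries and 6362 to 8363 in control siRNA libraries. Pericyte and smooth muscle markers fell in 5 of 8 cases (Rgs5, Mcam, Notch3, Kcnj8 and Abcc9), with overlapping sums of 10967 to 17872 with Aurkb siRNA and 11887 to 16064 with control siRNA. Of 6 mesothelial markers Upk1b and Lrrn4 fell and Krt19 rose, with sums of 15796 to 29117 with Aurkb siRNA and 28862 to 34459 with control siRNA. Among 7 hematopoietic markers the 2 that could be tested, Cd68 and Lyz2, fell, Ptprc and Itgam were under the minimum level, and Adgre1, C1qa and Cd3e have no row in the table. Of 6 epithelial markers 4 were tested and Sftpc fell, and of 4 platelet markers only Itga2b was tested, at 52.8 to 82.8 with Aurkb siRNA and 51.2 to 61.7 with control siRNA, and was not called. Some marker calls were lost when 1 library was left out: Tek, at -0.52 without control siRNA replicate 1, -0.54 without control siRNA replicate 3, -0.53 without Aurkb siRNA replicate 2 and -0.54 without Aurkb siRNA replicate 3; Notch3, at -0.52 without control siRNA replicate 3 and -0.56 without Aurkb siRNA replicate 1. Lrrn4 stood at -0.50 without Aurkb siRNA replicate 2, and Lyz2 had a limma adjusted p of 0.0895 without control siRNA replicate 2 and 0.0771 without control siRNA replicate 3. The marker counts stand beside 7.67% of all genes called lower and 4.64% called higher. The part of these cell types in the changes below was not tested, and in such bulk samples fewer cells of a type and less RNA per cell cannot be told apart.

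Because Postn and Tgfbi encode relatives with the same fasciclin-type domains and fell to a similar share of control, their promoters are shown, from RefSeq on GRCm38.p6, 250 bases before to 50 bases after the start of the transcript, 5′ to 3′ on the plus strand. The Postn window is chr3:54360857-54361156, around the downstream of its listed starts, and the Tgfbi window is chr13:56609336-56609635. Capitals mark matches to the motifs named after the sequences.
Postn: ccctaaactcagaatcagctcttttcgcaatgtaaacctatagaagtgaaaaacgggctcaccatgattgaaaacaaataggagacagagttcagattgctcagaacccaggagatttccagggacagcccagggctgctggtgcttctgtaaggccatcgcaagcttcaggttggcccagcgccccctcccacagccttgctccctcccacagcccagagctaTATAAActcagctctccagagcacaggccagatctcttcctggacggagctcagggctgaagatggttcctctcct
Tgfbi: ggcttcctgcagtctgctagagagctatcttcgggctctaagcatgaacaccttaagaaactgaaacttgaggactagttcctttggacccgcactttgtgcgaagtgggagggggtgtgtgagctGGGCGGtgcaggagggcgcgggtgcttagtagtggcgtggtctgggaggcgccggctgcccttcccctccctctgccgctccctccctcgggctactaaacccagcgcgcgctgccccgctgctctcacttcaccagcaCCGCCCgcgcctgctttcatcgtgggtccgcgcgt
The Postn window shown holds TATAAA, the core of the TATA box, at position -26 from the start. The window around the upstream Postn start (chr3:54359017-54359316), not shown, holds no TATAAA. The Tgfbi window has no TATAAA but holds 2 matches to the SP1 site GGGCGG, at positions -124 and 15, the downstream match on the minus strand. Read on both strands, TATAAA occurs in 13.6% and GGGCGG in 35.7% of 32851 mouse promoter windows of the same length. Promoter windows were given for 5 of the 10 genes (Postn, Tgfbi, Tnc, Sparc and Thbs2, 7 windows in all). TATAAA also lay in both Tnc windows, which overlap, at -126 and -205, and in the Thbs2 window at -126. GGGCGG also lay in both Tnc windows, at -167 and -246, and neither Tnc nor Thbs2 was called. None of the 7 held the AP-1 site TGANTCA (7.81% of all promoters), the TEAD site GGAATG (14.7%) or the palindromic SMAD element GTCTAGAC (0.213%). The matches in capitals do not overlap each other, and a match or its absence is a description of these letters only.

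Levels between genes were compared per length, as RPKM, read numbers scaled for transcript length and for library depth. Sparc was the fourth most abundant of all genes tested, at 3835 ± 316 RPKM with Aurkb siRNA and 3694 ± 248 with control siRNA (SD, n = 3 each). Fn1 followed with 1129 ± 187 RPKM with Aurkb siRNA and 1249 ± 131 with control siRNA, and Thbs1 with 500.3 ± 75.1 RPKM with Aurkb siRNA and 378 ± 24.3 with control siRNA. These 3 genes kept their order in every library, with no overlap between neighbours. With Aurkb siRNA the next 3 genes could not be ranked beyond their spread, since Tnc ran from 62.4 to 118 RPKM, Postn from 56.9 to 82.4 and Thbs2 from 58.8 to 66.4. With control siRNA, Postn stood above both, at 106 to 156 RPKM, while Tnc (71.0 to 85.8) and Thbs2 (69.4 to 76.8) overlapped. Among the less abundant genes the Aurkb siRNA libraries gave Spon2 14.0 to 30.1 RPKM, Spon1 12.0 to 16.1 and Smoc2 7.17 to 10.5, so that Smoc2 was below the other 2. In the control siRNA libraries Spon1 (19.1 to 26.5 RPKM) stood above Spon2 (11.2 to 14.0), and Smoc2 (13.3 to 21.7) overlapped both. Tgfbi was the least abundant throughout, at 1.01 ± 0.0666 RPKM with Aurkb siRNA and 2.16 ± 0.491 with control siRNA. Together the 10 genes took 2.30%, 2.58% and 2.57% of the counted reads with Aurkb siRNA, against 2.36%, 2.52% and 2.65% with control siRNA, and these shares overlapped. Fn1 and Sparc alone made up 80.1% to 83.4% of the reads of the 10 genes with Aurkb siRNA and 83.2% to 85.5% with control siRNA, so their level sets that of the group.

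**Figure D2:**
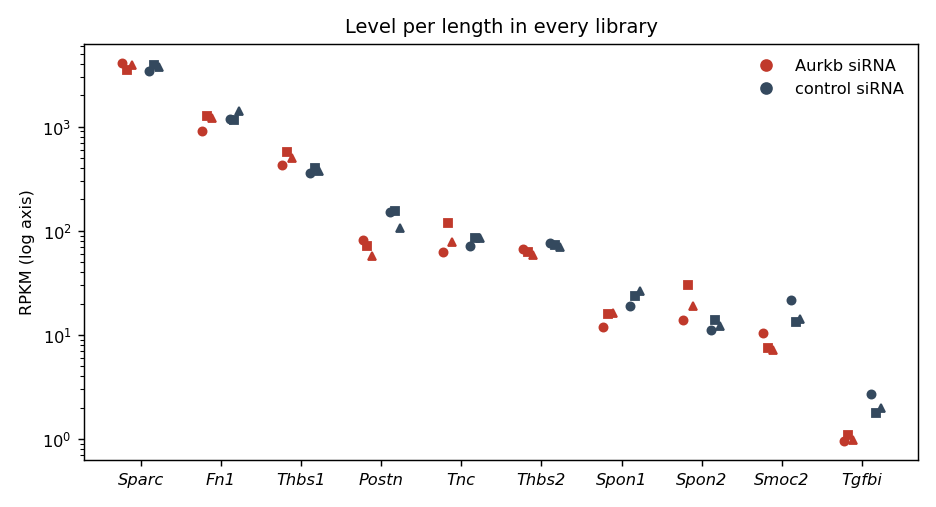
RPKM of each gene in every library on a log axis, genes in order of their mean, Aurkb siRNA left of control siRNA for each gene, symbols as in the plot of normalized counts. The levels span from 0.961 RPKM for Tgfbi to 4094 RPKM for Sparc, and Postn, Tnc and Thbs2 share 1 range with Aurkb siRNA.

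The scaffold glycoproteins Fn1 and Tnc were not called. Fn1 (chr1:71585473-71653280, GRCm38.p6) had 215874, 307843 and 296089 normalized counts with Aurkb siRNA, against 287365, 281688 and 339253 with control siRNA. The groups overlapped, the Aurkb siRNA library of replicate 1 being the lowest of the 6 and the control library of replicate 3 the highest. The log2 fold change was -0.16 (SE 0.18, 95% interval -0.56 to 0.24, limma adjusted p = 0.501), and without Aurkb siRNA replicate 1 it was 0.00. The interval leaves out a rise of 1.5-fold and, only narrowly, a fall of 1.5-fold. The log2 fold change of Fn1 was -0.26 (SE 0.18) without Aurkb siRNA replicate 2 and -0.23 (SE 0.22) without Aurkb siRNA replicate 3. Neither of those fits leaves out such a fall. Tnc (chr4:63959785-64047015) encodes tenascin-C, a large branched glycoprotein that appears in wounds and binds fibronectin. It had 11715, 23003 and 15287 normalized counts with Aurkb siRNA, against 13759, 16483 and 16379 with control siRNA. The Aurkb siRNA libraries held both the lowest and the highest value, with a highest-to-lowest ratio of 1.96, and the control libraries fell between them. This gave a log2 fold change of 0.05 (SE 0.20, interval -0.41 to 0.51, limma adjusted p = 0.865), and it turned to -0.21 without Aurkb siRNA replicate 2 and to -0.04 without control siRNA replicate 1.

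The fasciclin-domain pair fell. Postn (chr3:54359267-54391041) encodes periostin, which binds collagen and integrins of the alpha-v group and helps bring lysyl oxidase to its activator. It had 7183, 6479 and 5129.8 normalized counts with Aurkb siRNA, against 13541, 13863 and 9466 with control siRNA. No library overlapped, and replicate 3 was the lowest of each group. Postn thus had a log2 fold change of -0.97 (SE 0.16, interval -1.32 to -0.61, limma adjusted p = 0.00145), and between libraries of the same replicate number the differences were -0.91, -1.10 and -0.88. Tgfbi (chr13:56609586-56639359) encodes a TGF-β-induced adhesion protein named for its response to that ligand. It had 68.1, 79.7 and 72.3 normalized counts with Aurkb siRNA, against 198, 128 and 146 with control siRNA. The groups did not overlap, and control siRNA replicate 1 stood above the other control libraries. For Tgfbi the log2 fold change was -1.07 (SE 0.17, interval -1.46 to -0.68, limma adjusted p = 0.00133), and it rests on 71, 77 and 55 reads with Aurkb siRNA against 221, 139 and 159 reads with control siRNA. Tested on log2(RPKM + 1), where the pseudocount is about as large as its level, Tgfbi was at -0.64 (adjusted p = 0.00249) and still called.

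**Figure D3:**
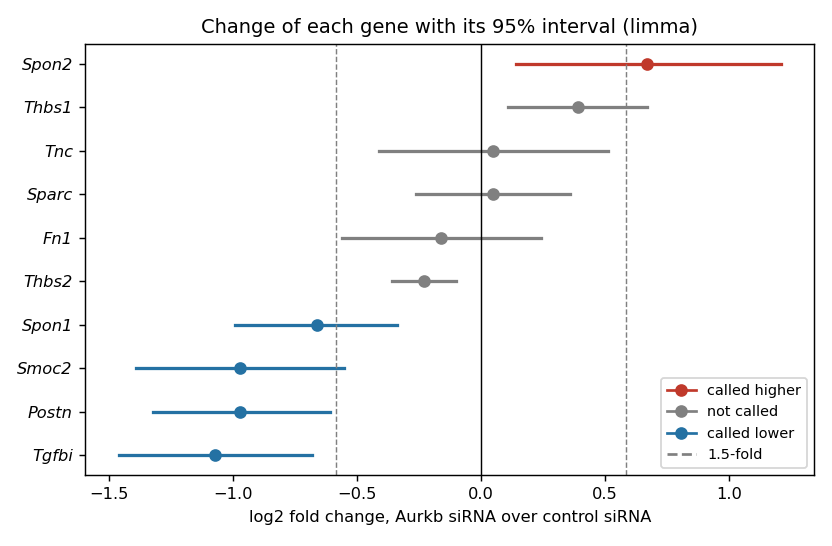
Log2 fold change of each gene, Aurkb siRNA over control siRNA, with its 95% interval from limma on normalized counts; dashed lines mark 1.5-fold and colours the calls. Tgfbi, Postn, Smoc2 and Spon1 were called lower, Spon2 was called higher, and Thbs1 and Thbs2 have intervals that leave out 0 without reaching the fold threshold.

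The thrombospondins, trimeric glycoproteins that restrain blood vessel growth, had small differences of opposite sign. Thbs1 (chr2:118111876-118127133), which can also activate latent TGF-β, had 68222, 95454 and 82467 normalized counts with Aurkb siRNA, against 58784, 66104 and 61280.5 with control siRNA. All Aurkb siRNA libraries were above all control libraries, replicate 1 being the lowest of each group and replicate 2 the highest. The log2 fold change was 0.39 (SE 0.12, interval 0.11 to 0.67, limma adjusted p = 0.0316), under 1.5-fold, and the adjusted p ran up to 0.0937 when 1 library was left out and was 0.126 after quantile normalization. Between libraries of the same replicate number the differences of Thbs1 were 0.21, 0.53 and 0.43. In the limma fit that pairs libraries by that number the adjusted p of Thbs1 was 0.00109. Thbs2 (chr17:14665500-14694262) had 10404, 10151 and 9538 normalized counts with Aurkb siRNA, against 12421, 11711 and 11163 with control siRNA. Here all Aurkb siRNA libraries were below all control libraries and the spread was narrow. Its log2 fold change was -0.23 (SE 0.06, interval -0.36 to -0.10, limma adjusted p = 0.0132), and the interval leaves out a 1.5-fold fall. Without Aurkb siRNA replicate 3 the adjusted p of Thbs2 was 0.0631. The ratio of Thbs1 to Thbs2, in RPKM, was 6.42, 9.21 and 8.47 with Aurkb siRNA, against 4.63, 5.53 and 5.38 with control siRNA. The ratios described here were chosen after the values were seen. The exact two-sided permutation test of their means gave p = 0.1 for each, the smallest that 3 against 3 allows. This adds nothing to the groups not overlapping.

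Sparc and Smoc2, of the SPARC family, differed from each other. Sparc (chr11:55394159-55420080), also called osteonectin, binds collagen as it is secreted and assembled. It had 292217, 257273 and 290021 normalized counts with Aurkb siRNA, against 251735, 284627 and 275902 with control siRNA. The groups overlapped, and the log2 fold change was 0.05 (SE 0.14, interval -0.26 to 0.36, limma adjusted p = 0.806). Smoc2 (chr17:14279490-14404790) encodes a calcium-binding relative of Sparc. It had 785, 579 and 556 normalized counts with Aurkb siRNA, against 1681, 1021 and 1108 with control siRNA. The groups did not overlap, and replicate 1 was the highest of each. Smoc2 had a log2 fold change of -0.97 (SE 0.19, interval -1.39 to -0.55, limma adjusted p = 0.00348). Smoc2 and Thbs2 lie 261 kb apart on chromosome 17 and differed in the size of their change, with intervals that do not meet.

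The spondins, secreted proteins with thrombospondin-type repeats, were called in opposite directions. Spon1 (chr7:113765998-114043375) encodes F-spondin, known from axon guidance. It had 1955, 2691 and 2710.2 normalized counts with Aurkb siRNA, against 3213, 3952 and 4441 with control siRNA. The groups did not overlap, and replicate 1 was the lowest of each. With a log2 fold change of -0.66 (SE 0.14, interval -0.99 to -0.34, limma adjusted p = 0.00611), Spon1 was just past 1.5-fold, and it passed under it, at -0.51 without Aurkb siRNA replicate 1 and at -0.56 without control siRNA replicate 3. Spon2 (chr5:33213518-33218254) encodes mindin, an integrin ligand with a part in innate immunity. It had 827, 1843 and 1163 normalized counts with Aurkb siRNA, against 685, 848 and 749.5 with control siRNA. Aurkb siRNA replicate 1 lay below control siRNA replicate 2, so the groups overlapped, and the highest Aurkb siRNA library was 2.23 times the lowest. The log2 fold change was 0.67 (SE 0.24, interval 0.14 to 1.21, limma adjusted p = 0.0470), and the exact two-sided permutation test of the means gave p = 0.2, where 0.1 is the smallest that 3 against 3 allows. This call held in only 1 of the 6 fits that left out a library, and limma voom gave an adjusted p of 0.0583. Between libraries of the same replicate number the differences of Spon2 were 0.27, 1.12 and 0.63. The limma fit that pairs libraries by that number, which the labels do not explain, gave Spon2 an adjusted p of 9.07e-04. The ratio of Spon2 to Spon1, in RPKM, was 1.17, 1.89 and 1.18 with Aurkb siRNA, against 0.59, 0.59 and 0.47 with control siRNA, so Spon2 was the more abundant in every Aurkb siRNA library and Spon1 in every control library.

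**Figure D4:**
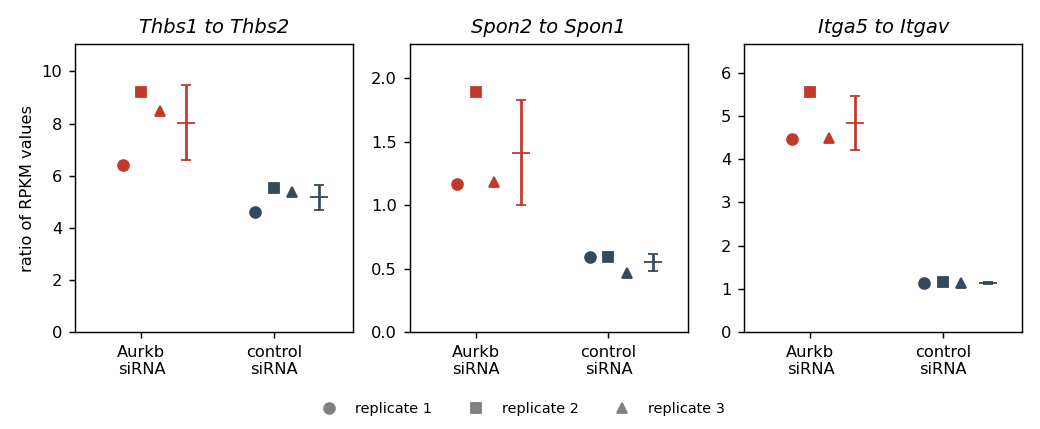
Ratios of RPKM values within each library for Thbs1 to Thbs2, Spon2 to Spon1 and the integrin subunits Itga5 to Itgav, Aurkb siRNA left of control siRNA, each axis from 0, with mean ± SD (n = 3). In each panel the 3 Aurkb siRNA libraries lie above the 3 control siRNA libraries, with means of 8.03, 1.41 and 4.83 with Aurkb siRNA, against 5.18, 0.55 and 1.15 with control siRNA.

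The spread among the Aurkb siRNA libraries was not the same for all genes. Aurkb siRNA replicate 1 was the lowest of its group for 6 of the 10 genes and replicate 2 the highest for 5, and these included Tnc and Spon2, which differed most within the group. In the control group replicate 1 was the lowest for 5 genes and replicate 2 the highest for 5. The summed mesothelial markers were lowest in Aurkb siRNA replicate 2 (15796) and highest in replicate 1 (29117). The ribosomal precursor transcript Rn45s took 2.64%, 4.78% and 4.11% of the reads of Aurkb siRNA replicates 1 to 3. In control siRNA replicates 1 to 3 Rn45s took 4.31%, 3.14% and 2.60%. The part of mesothelial cells or of Rn45s in the spread was not tested.

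Over the 6 libraries, the profile most like that of Fn1, by Pearson correlation of log2 normalized counts among 12106 genes, was shared by Mvb12b, Bub1b and Sh3pxd2a (r = 0.980 each). The profile of Postn was closest to those of Isca1 (r = 0.998), Trnau1ap (r = 0.994) and Iah1 (r = 0.992). The last 3 had log2 fold changes of -0.29, -0.23 and -0.26, smaller than that of Postn. All 6 points share their libraries and scaling, and the correlations are given as a description. With 6 libraries and 12106 genes compared, values of r this high can also arise between unrelated genes.

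Other matricellular proteins went both ways as well. Of 22 such genes listed, 16 were in the table and 15 were tested. Of these 4 rose and 4 fell, beside 4.64% of all genes called higher and 7.67% called lower. The median log2 fold change of the list was -0.03. The genes that rose included the integrin-binding CCN proteins Ctgf (log2 fold change 0.97, SE 0.08, adjusted p = 5.00e-05) and Cyr61 (0.62, SE 0.09, adjusted p = 0.00104), and the SPARC relative Fstl1 (0.79, SE 0.10, adjusted p = 4.29e-04). Spp1, which encodes osteopontin, also rose (1.41, SE 0.34, adjusted p = 0.0104), with 1439, 4201 and 1485 normalized counts with Aurkb siRNA, against 825, 779 and 749 with control siRNA. Cyr61 was under 1.5-fold without Aurkb siRNA replicate 2 (0.52) or control siRNA replicate 3 (0.55). The high Aurkb siRNA value of Spp1 was again that of replicate 2, and the groups did not overlap. The genes that fell were the CCN protein Nov (-1.52, SE 0.29, adjusted p = 0.00333), the tenascin Tnxb (-0.95, SE 0.11, adjusted p = 1.93e-04), the SPARC relative Sparcl1 (-0.70, SE 0.09, adjusted p = 3.29e-04) and the proteoglycan Spock2 (-1.05, SE 0.25, adjusted p = 0.00992, limma throughout). Spock2 rests on few reads, 14, 17 and 17 with Aurkb siRNA, against 41, 46 and 36 with control siRNA. With a minimum level of 50 normalized counts, 3 genes of this list were called lower. The CCN proteins and the SPARC relatives thus each had genes called in both directions.

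Among the receptors, a few integrin chains were called, in both directions, and most were not. Of 20 receptor genes 19 were tested, of which 2 rose and 3 fell, with a median log2 fold change of -0.11. These counts stand beside 4.64% of all genes called higher and 7.67% called lower. Itga5, the alpha chain of the main fibronectin receptor, had 7618, 11171 and 8132 normalized counts with Aurkb siRNA, against 4063, 4194 and 4525 with control siRNA (log2 fold change 1.06, SE 0.12, limma adjusted p = 2.63e-04). Itgav, the alpha chain of receptors for periostin and vitronectin, had 2642, 3121 and 2813 with Aurkb siRNA, against 5569, 5566 and 6136 with control siRNA (-1.01, SE 0.07, limma adjusted p = 2.29e-05). Neither gene had overlapping groups, and their ratio in RPKM was 4.47, 5.55 and 4.48 with Aurkb siRNA, against 1.13, 1.17 and 1.14 with control siRNA. Itgb3, a beta chain that pairs with the Itgav product, fell with it (-0.91, SE 0.09, adjusted p = 8.73e-05), the heparan sulfate proteoglycan Sdc1 rose (0.75, SE 0.07, adjusted p = 5.96e-05) and Stab1, a scavenger receptor that takes up Sparc, fell (-1.24, SE 0.18, adjusted p = 8.65e-04). Stab1 is also expressed by macrophages and sinusoidal endothelium. Of the markers given above, 10 of 11 endothelial ones and the hematopoietic Cd68 and Lyz2 were called lower. Ptprc and Itgam, hematopoietic markers under the minimum level, were not tested, and their few counts cannot show a change in either direction. Ptprc had 3.84, 6.21 and 5.26 normalized counts with Aurkb siRNA, against 1.79, 4.61 and 3.66 with control siRNA. Itgam had 8.63, 8.28 and 6.57 with Aurkb siRNA, against 8.07, 1.84 and 3.66 with control siRNA. The part of such cells in the fall of Stab1 was not tested.

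Genes of the TGF-β axis, to which many of these genes respond, were counted against the same background. Of 12 ligands, latency proteins and processing enzymes 11 were tested, and the protease gene Tll1 alone was called: it had 272, 337 and 259 normalized counts with Aurkb siRNA, against 117, 119.8 and 124 with control siRNA (log2 fold change 1.25, SE 0.12, limma adjusted p = 9.29e-05). By the adjusted p alone 2 were higher and 0 lower, and the median of this list was 0.09. Of 9 feedback and target genes 1 rose, Ctgf, which the list shares with the matricellular proteins, and none fell by the same limma rule (by the adjusted p alone, 3 were higher and 1 lower). The median of the feedback and target genes was -0.05. With 1 gene called higher in each list, beside 4.64% of all genes, these counts say little about either list. Ctgf rose while Postn and Tgfbi, which also respond to TGF-β, fell.

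**Figure D5:**
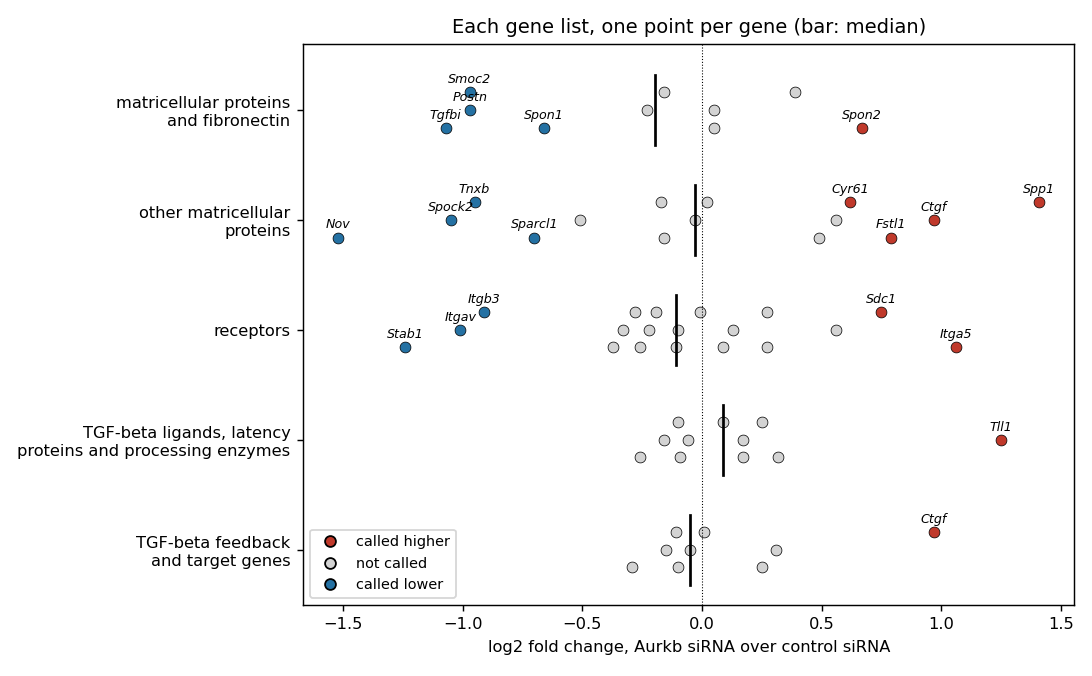
Log2 fold change, Aurkb siRNA over control siRNA, of each tested gene of 5 lists, with the called genes named, the vertical bar at the median and points shifted up and down only for legibility. The medians lie between -0.19 and 0.09, and both the matricellular proteins and the receptors have genes called in each direction.

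Reads from genes on opposite strands could not be separated, since a strand setting is not given in the sources used here. Exons of Fn1, Tnc and Thbs1 overlap an annotated gene on the other strand by 292, 176 and 208 bases (GENCODE M21), and none of these partners has a row in the table. None of these 3 genes was called.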

How the data were processed

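RNA of Aurkb siRNA (n = 3) and control siRNA (n = 3) fibroblasts was sequenced, and according to the submitters' processing notes bcl2fastq, CASAVA 1.8, TopHat and DESeq were used with mm10. How reads were counted, on which strand and over which annotation, is not given in the sources used here. RPKM values of each library were deposited, as were signal values, which are the authors' group means of counts divided by DESeq size factors. The table also holds the authors' fold changes and p-values, which were not used, and a second deposited table was not used.

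Whole reads were recovered from the RPKM steps and the group means (100% of values whole within 0.001, from 1586 low genes) and divided by the authors' size factors (0.7608 to 1.1155). Normalized counts were tested with limma 3.58.1 (R 4.3.3), with trend, on log2(normalized count + 1), where the mean of either group reached 10. Fold changes are on that scale. Benjamini-Hochberg adjustment was over all 13906 genes, and the residual degrees of freedom were 4. The test was tested on simulated data. Depth was 20820596 to 30441954 reads, so counting error was small beside the spread between libraries for all genes but those with few reads, such as Tgfbi.

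Samples with the same replicate number deviated together (correlations of 0.395, 0.173 and 0.214, against -0.243 to 0.049 for different numbers), so the numbers were taken as pairing the libraries, on the data alone since the labels do not say what a number shares. The fit without the block was kept as planned, with the blocked fit, scalings, minimum levels, pseudocounts, voom, RPKM values and leaving out each library as alternatives.

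The genes and lists were chosen with earlier results of these data known. Named were all 10 genes, Aurkb, up to 4 called genes of each list with the smallest adjusted p plus called genes against their list's main direction, the 3 genes most like Fn1 and Postn, and markers that were called or without values. Cyr61, Nov, Spp1, Spock2 and Stab1 were named beyond that rule, after their values were seen. A few list genes are not reported here and were left out of their lists. Gene positions and 14853 of 14870 gene identifiers were matched to RefSeq, and 22 symbols that had turned into dates were left as they were.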

Additional observations from a re-analysis of the deposited data

How the results depend on the processing

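Of 140 alternative values of the 10 genes, 128 kept direction and call, 4 changed direction, 8 lost the call and 0 gained one. Those that changed direction were never called: leaving out 1 library, the log2 fold change ran from -0.26 to 0.00 for Fn1, from -0.21 to 0.28 for Tnc and from -0.00 to 0.11 for Sparc. Leaving out 1 library, 0 to 1 of the 10 genes were called higher and 3 to 4 lower. The call of Spon2 was lost without each library but Aurkb siRNA replicate 1 (log2 fold change 0.37 to 0.95, limma adjusted p up to 0.116), and Spon1 stayed lower at -0.79 to -0.51. Postn, Tgfbi and Smoc2 kept their calls in 6 of 6 such fits, at -1.14 to -0.83, -1.20 to -0.89 and -1.13 to -0.75. With voom 0 of the 10 genes were called higher. With the adjusted p alone 2 were higher, and 2711 genes in all were higher and 2850 lower. At 2-fold 0 of the 10 were higher and 1 lower, with 224 and 380 genes in all. On log2(RPKM + 1), where the mean of either group reached 1 RPKM, 311 genes were called higher and 531 lower. This setting tests another set of genes and gives the pseudocount more weight at low levels. The part of either in the lower counts was not tested. The median of all genes moved by at most 0.03 under another scaling. With the replicate block, which pairs libraries by number, 694 genes were called higher and 1171 lower, 1 and 4 of the 10, and no call of the 10 changed. Of 128 alternative counts of the other lists 9 moved by over 1.5 times. Tgfbi, at 55 to 221 reads, is the one of the 10 whose precision depth limits most.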
